A study of Rattus norvegicus with 9 samples.

Results

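The 8 genes described here are the FoxO transcription factors Foxo1, Foxo3 and Foxo4 and 5 ubiquitin ligase genes tied to muscle atrophy, Fbxo32, Trim63, Fbxo30, Fbxo31 and Fbxo21. They were chosen by gene symbol, with earlier results of these data known, so comparisons of the 8 with all genes are descriptions. Each matched 1 of the 30518 gene rows, and all 8 were among the 16256 genes with enough reads to be tested. Gene expression was measured by RNA-seq of the pubococcygeus, a skeletal muscle that supports the urethra and vagina, taken from female Sprague-Dawley rats. The labels used here state no age. The study asked how electrical stimulation of the pelvic floor acts on muscle injured in a model of stress urinary incontinence (SUI). There were 3 groups with 3 libraries each, drawn from 24 rats at 8 per group.

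The stimulated group had the SUI model and then transvaginal pelvic floor electrical stimulation (PFES), begun 1 week after modeling. Stimulation used monophasic square pulses of 200 μs at 50 Hz and 20 mA, in daily sessions of 30 min, 5 days per week, for 2 weeks. Rats of the SUI group had the model alone, which was the removal of both ovaries together with distension of the vagina by an 8 Fr balloon catheter holding 3 mL of saline under a 120 g weight for 4 h. Library names call this group sham, although its rats had the full model. The blank group had neither surgery nor stimulation, so no group separates loss of the ovaries from the distension, and none had an inactive electrode. The labels number the libraries without saying whether each is a separate rat, so the p-values measure only the spread between these libraries.

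Skeletal muscle loses mass when protein breakdown outpaces synthesis, and much of the breakdown passes through the proteasome after ubiquitin ligases have tagged the proteins. Insulin and IGF signalling through the kinase Akt keeps FoxO factors phosphorylated and out of the nucleus, and when that signal weakens they enter the nucleus and switch on ligase genes. FoxO activity is therefore set largely on the protein, and a FoxO transcript level is not a measure of it. Fbxo32 encodes atrogin-1, the F-box protein that brings substrates such as MyoD and eIF3f to an SCF ligase (a complex of Skp1, cullin 1, Rbx1 and an F-box protein). Trim63 encodes MuRF1, a RING ligase of the sarcomere, and Fbxo30 encodes MUSA1, an F-box protein held down by BMP signalling in mouse muscle. Fbxo31 and Fbxo21 encode further F-box proteins, and mouse work places both among the ligases that need FoxO factors in wasting muscle, Fbxo21 under the name SMART.

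Promoter windows from RefSeq (build GRCr8, 250 bases before the start of the gene to 50 after it) were given for 6 of the 8 genes, all but Fbxo32 and Foxo3. Trim63 and Fbxo31 are shown as 1 pair whose transcript levels had Pearson's r = 0.80 and whose promoters differ in motifs and base composition. That correlation did not pass the threshold of 0.05 (exact permutation p adjusted over 28 pairs 0.133). Trim63 had a higher correlation with Fbxo30 (r = 0.89, adjusted p = 0.013 by the same test), whose window is not printed. The Trim63 window lies at chr5:151816986-151817285 on the plus strand and the Fbxo31 window at chr19:66564625-66564924 on the minus strand. Capitals mark a glucocorticoid receptor palindrome (GNACANNNTGTNC) and a FoxO core (TGTTTAC), both searched on both strands.
Trim63: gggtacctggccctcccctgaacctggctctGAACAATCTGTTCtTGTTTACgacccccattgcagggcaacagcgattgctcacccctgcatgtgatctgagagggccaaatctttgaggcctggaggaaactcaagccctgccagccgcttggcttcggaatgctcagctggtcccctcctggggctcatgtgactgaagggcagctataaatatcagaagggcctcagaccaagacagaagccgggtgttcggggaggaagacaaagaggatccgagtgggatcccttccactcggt
Fbxo31: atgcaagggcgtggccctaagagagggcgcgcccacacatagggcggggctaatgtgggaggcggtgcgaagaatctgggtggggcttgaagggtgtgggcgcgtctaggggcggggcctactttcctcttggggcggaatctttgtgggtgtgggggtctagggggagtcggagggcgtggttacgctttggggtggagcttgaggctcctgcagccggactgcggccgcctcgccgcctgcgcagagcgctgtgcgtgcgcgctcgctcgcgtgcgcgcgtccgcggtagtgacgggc

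In Trim63 the palindrome, GAACAATCTGTTC, ran from base -219 to base -207 relative to the start, and the FoxO core from -205 to -199, so that 1 base lay between them. Of 33469 rat promoter windows of this length, 0.439% held the palindrome, 3.78% held the FoxO core, and 4 windows (0.012%) held both. A TATAAA box, which 14.2% of windows hold, lay at -42 to -37 in Trim63. None of these 3 letter patterns occurred in the windows of Fbxo30, Fbxo31, Fbxo21, Foxo1 or Foxo4. The Trim63 window had 57.0% G and C and 8 CG pairs, against 69.0% and 32 CG pairs in Fbxo31, and the other 4 windows had between 60.3% and 77.3% G and C.

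Library totals ran from 50833480 to 147650284 counts with a median of 110699836. The shallowest, blank replicate 1, also had 32.9% of its counts on mitochondrial genome transcripts, against 13.4% to 17.7% in the other 8 libraries. All 8 skeletal muscle marker genes were detected in every library. Their summed level was 161000 to 166000 CPM (counts scaled to library size, here by library totals) in stimulated muscle, 136000 to 173000 in SUI muscle and 151000 to 156000 in blank muscle, lowest in SUI replicate 1. Epithelial markers summed to under 1 CPM throughout. Since whole muscle was ground, fewer cells of a type and less RNA per cell cannot be told apart.

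Per length of transcript, in FPKM (fragments scaled by transcript length and library size), Trim63 was the most abundant of the 8. It averaged 223 ± 124 FPKM in stimulated muscle, 490 ± 431 in SUI muscle and 251 ± 177 in blank muscle (SD, n = 3 each), and made up 70.5% to 87.3% of the FPKM summed over the 5 ligases in the 9 libraries. Fbxo31 (mean over 9 libraries 56.2 FPKM), Foxo4 (41.6), Fbxo32 (35.0) and Foxo1 (17.2) came next, followed by Foxo3 (5.46), Fbxo30 (3.51) and Fbxo21 (2.64). In blank muscle the neighbours Foxo4 and Fbxo31, Fbxo32 and Foxo1, and Fbxo30 and Fbxo21 did not differ beyond their spread. Foxo4 was the main FoxO transcript everywhere, with 53.2% to 83.8% of the summed FPKM of the 3 factors. The place of Fbxo32 depended on the group, with 5.38 ± 0.938 FPKM in stimulated muscle, 85.9 ± 100 in SUI muscle and 13.7 ± 3.94 in blank muscle (SD, n = 3 each).

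The first comparison, stimulated over SUI muscle, asks what stimulation did to injured muscle. The fitted level of Fbxo32 was 12.7-fold lower in stimulated muscle, the farthest from 0 among the 8 genes, although the difference did not pass the threshold of an adjusted p under 0.05. None of the 8 genes passed, and 0.0123% of all tested genes did (2 of 16256, edgeR quasi-likelihood test with Benjamini-Hochberg adjustment). At an unadjusted p under 0.05 there was 1 of the 8, Fbxo32, and 8% of all genes. The log2 fold change was negative for 7 of the 8, with a median of -0.66, against 47.4% of all genes and a median of 0.02. Without SUI replicate 1 it was negative for 5, at a median of -0.11.

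Fbxo32 (ENSRNOG00000006738, chromosome 7, 89730232 to 89765436, minus strand, build mRatBN7.2) had 25.0, 14.9 and 22.6 CPM in the stimulated libraries, against 583, 74.8 and 138 CPM in the SUI libraries. Every stimulated library lay below every SUI library, as in 9.28% of all genes, and SUI replicate 1 lay far above the other SUI libraries. The log2 fold change was -3.67 ± 0.73 (SE; edgeR unadjusted p = 0.000577, adjusted p = 0.266), and 0.375% of all genes had a change as large in either direction. DESeq2 on the same counts gave -3.69 with an adjusted p of 1.33e-05, in a fit that called 1.28% of genes, and voom with sample weights gave -2.54 with an adjusted p of 0.0497. Without SUI replicate 1 the edgeR value was -2.35, a move of more than 1.5 times in the fold, with an adjusted p of 0.486. That library also had the lowest summed skeletal muscle markers of all 9 and, within its group, the highest sums of smooth muscle markers (198 CPM, against 84.0 and 76.7), adipocyte markers (153 CPM, against 49.2 and 103) and erythroid markers (831 CPM, against 170 and 258). Its sums of fibroblast markers (1100 CPM, against 466 and 636) and endothelial markers (272 CPM, against 160 and 174) were also the highest of the SUI group. Stimulated replicate 2, the lowest of all 9 libraries for Fbxo32, Trim63, Fbxo30, Foxo1 and Foxo4, had the highest sums of fibroblast markers (3330 CPM, against 466 to 1540 CPM elsewhere), leukocyte markers (267 CPM) and endothelial markers (313 CPM). Without it Fbxo32 was at -3.48 (edgeR adjusted p = 0.671), and 6 of the 8 genes had negative values at a median of -0.36. The part of these marker levels in the values of the 8 genes was not tested.

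Trim63 (ENSRNOG00000016543, chromosome 5, 146533507 to 146543888, plus strand) had 884, 224 and 462 CPM in stimulated muscle, against 1690, 429 and 647 CPM in SUI muscle. The groups overlapped, and SUI replicate 1 was again the highest library. Its log2 fold change was -0.82 ± 0.64 (SE; edgeR adjusted p = 0.806), -0.04 without that library and -1.43 without stimulated replicate 1. The ratio of Trim63 to Fbxo32, per length, was 59.8, 25.3 and 34.6 in the stimulated libraries, against 4.89, 9.77 and 7.97 in the SUI libraries. In the blank libraries it was 6.55, 13.1 and 47.9, a range that reached into those of both other groups.

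Fbxo30 (ENSRNOG00000014852, chromosome 1, 5655339 to 5672441, plus strand) had 21.9, 10.2 and 11.9 CPM in stimulated muscle, against 38.3, 13.5 and 14.7 CPM in SUI muscle. It too was highest in SUI replicate 1. The log2 fold change was -0.59 ± 0.42 (SE; edgeR adjusted p = 0.780), and 0.07 without that library. Fbxo31 (ENSRNOG00000042274, chromosome 19, 49627686 to 49656010, minus strand) had 135, 58.9 and 112 CPM in stimulated muscle, against 247, 122 and 139 CPM in SUI muscle. One stimulated library lay inside the SUI range, and the log2 fold change was -0.74 ± 0.44 (SE; edgeR adjusted p = 0.732), or -0.36 without SUI replicate 1. Fbxo21 (ENSRNOG00000001129, chromosome 12, 38571023 to 38605133, minus strand) was nearly level, at 11.6, 10.9 and 12.1 CPM in stimulated muscle, against 12.6, 13.1 and 10.0 CPM in SUI muscle. Its log2 fold change was -0.05 ± 0.29 (SE; edgeR adjusted p = 0.989).

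**Figure D1:**
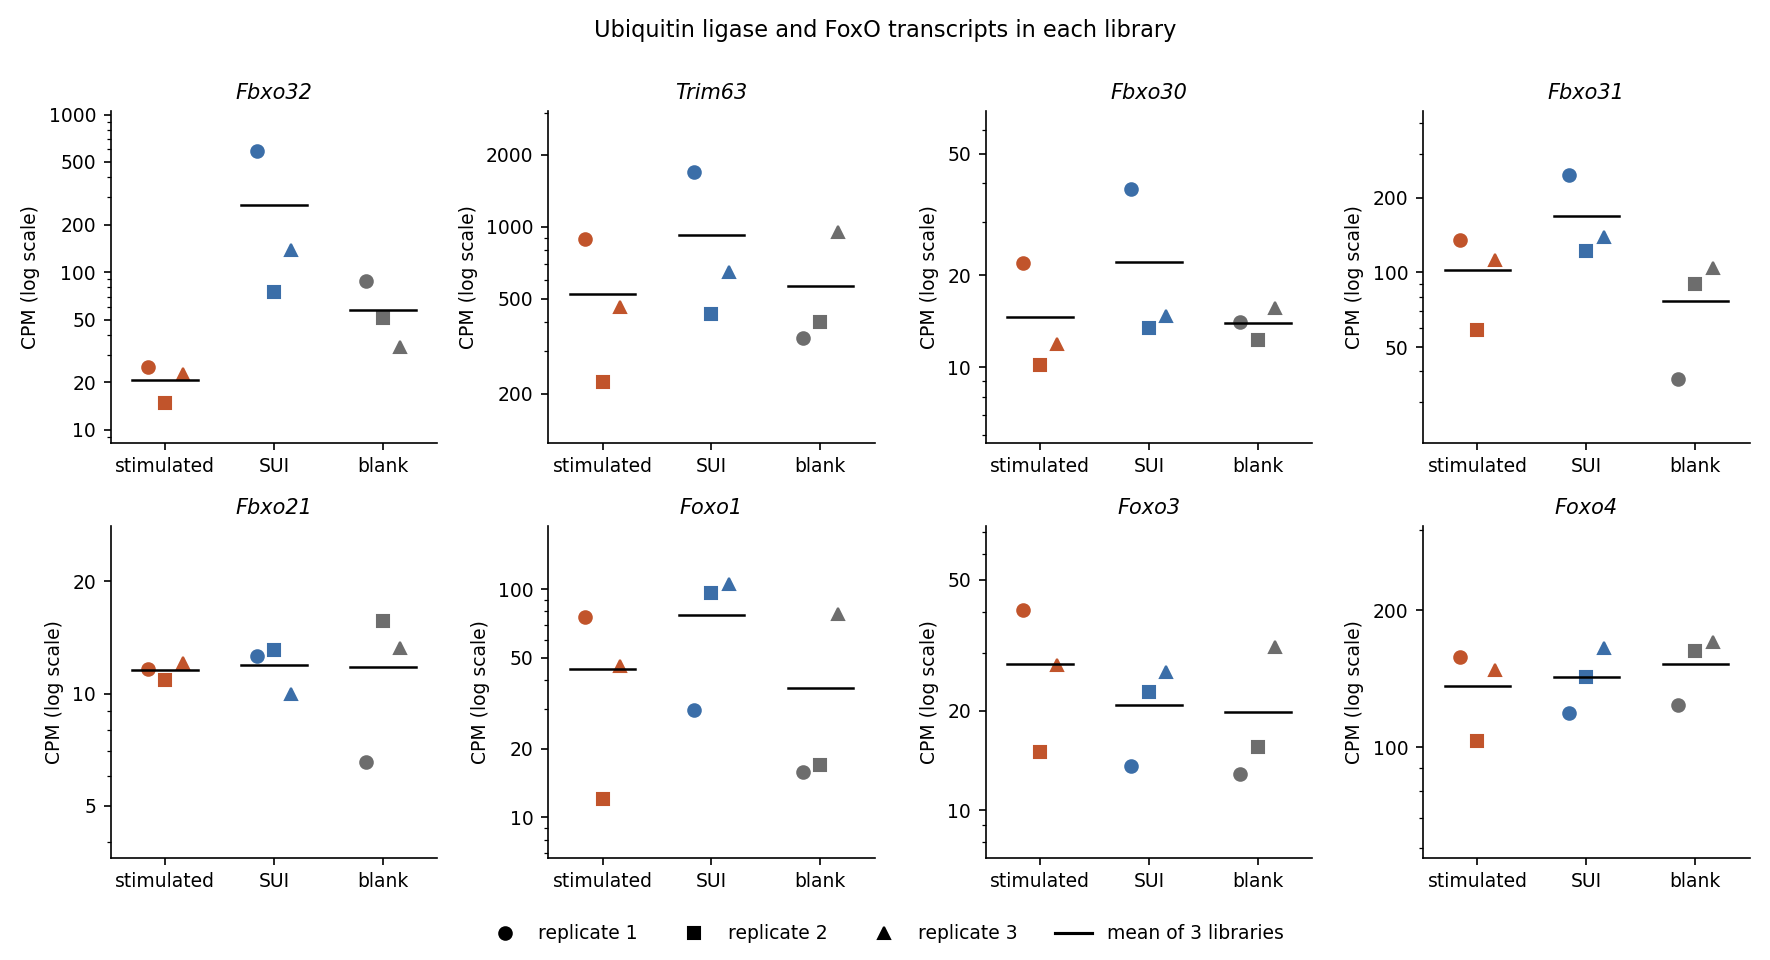
CPM (TMM-scaled, log axis) of the 8 genes in each of the 9 libraries, by group, with the group mean as a bar. For Fbxo32 the stimulated libraries sit between 14.9 and 25.0 CPM and the SUI libraries between 74.8 and 583 CPM.

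Among the FoxO factors the groups overlapped for all 3. Foxo1 (ENSRNOG00000013397, chromosome 2, 136312168 to 136387790, plus strand) had 75.8, 12.0 and 46.0 CPM in stimulated muscle, against 29.5, 96.5 and 105 CPM in SUI muscle. SUI replicate 1, the highest library for Fbxo32 and Trim63, was the lowest of its group for Foxo1. Its log2 fold change was -0.79 ± 0.79 (SE; edgeR adjusted p = 0.868), and -1.41 without stimulated replicate 1. Foxo3 (ENSRNOG00000000299, chromosome 20, 45672995 to 45764561, minus strand) had 40.5, 15.0 and 27.6 CPM in stimulated muscle, against 13.6, 22.8 and 26.3 CPM in SUI muscle, a log2 fold change of 0.41 ± 0.43 (SE). Foxo4 (ENSRNOG00000033316, chromosome X, 66385558 to 66392115, plus strand) varied least, at 158, 103 and 148 CPM in stimulated muscle, against 119, 143 and 165 CPM in SUI muscle. Its value was -0.06 ± 0.24 (log2, SE; edgeR adjusted p = 0.984).

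The second comparison, SUI over blank muscle, asks what the model itself did, and it shares the SUI libraries with the first, so the opposite signs of the pair are not independent. None of the 8 genes passed the threshold, as for all 16256 genes (0%), by edgeR's quasi-likelihood test, while DESeq2 called 1.09% of genes and none of the 8. At an unadjusted p under 0.05 there were 2 of the 8, Fbxo32 and Fbxo31, and 8.18% of all genes. The log2 fold change was positive for 7 of the 8 with a median of 0.68, against 50.8% and a median of 0.01 over all genes. Without SUI replicate 1 it was positive for 4, at a median of 0.14.

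Fbxo32 had 583, 74.8 and 138 CPM in SUI muscle, against 87.5, 51.4 and 33.7 CPM in blank muscle. SUI replicate 2 lay below blank replicate 1, so the groups overlapped. The log2 fold change was 2.21 ± 0.69 (SE; edgeR unadjusted p = 0.00976, adjusted p = 0.524), and 0.88 without SUI replicate 1. Fbxo31 had 247, 122 and 139 CPM in SUI muscle, against 37.2, 89.7 and 104 CPM in blank muscle. Every SUI library was above every blank library, as in 7.34% of all genes, with a log2 fold change of 1.14 ± 0.45 (SE; edgeR unadjusted p = 0.0289, adjusted p = 0.559). The lowest Fbxo31 value came from blank replicate 1, the library with the high mitochondrial share, and without it the value was 0.83.

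For the other ligases the SUI and blank groups overlapped. Trim63 had 1690, 429 and 647 CPM in SUI muscle, against 342, 398 and 953 CPM in blank muscle, a log2 fold change of 0.71 ± 0.63 (SE), -0.08 without SUI replicate 1 and 1.32 without blank replicate 3. Fbxo30 differed by 0.66 ± 0.42 on the log2 scale, and by -0.01 without SUI replicate 1. Foxo1 had 29.5, 96.5 and 105 CPM in SUI muscle, against 15.8, 16.9 and 77.7 CPM in blank muscle, with 1 library of each group lying among those of the other. Its log2 fold change was 1.07 ± 0.79 (SE; edgeR adjusted p = 0.687), and 2.24 without blank replicate 3 (edgeR adjusted p = 0.393). Foxo3 differed by 0.07 ± 0.43, Fbxo21 by 0.01 ± 0.29 and Foxo4 by -0.10 ± 0.24 (log2, SE), the last turning to 0.04 when libraries were scaled by their totals alone.

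**Figure D2:**
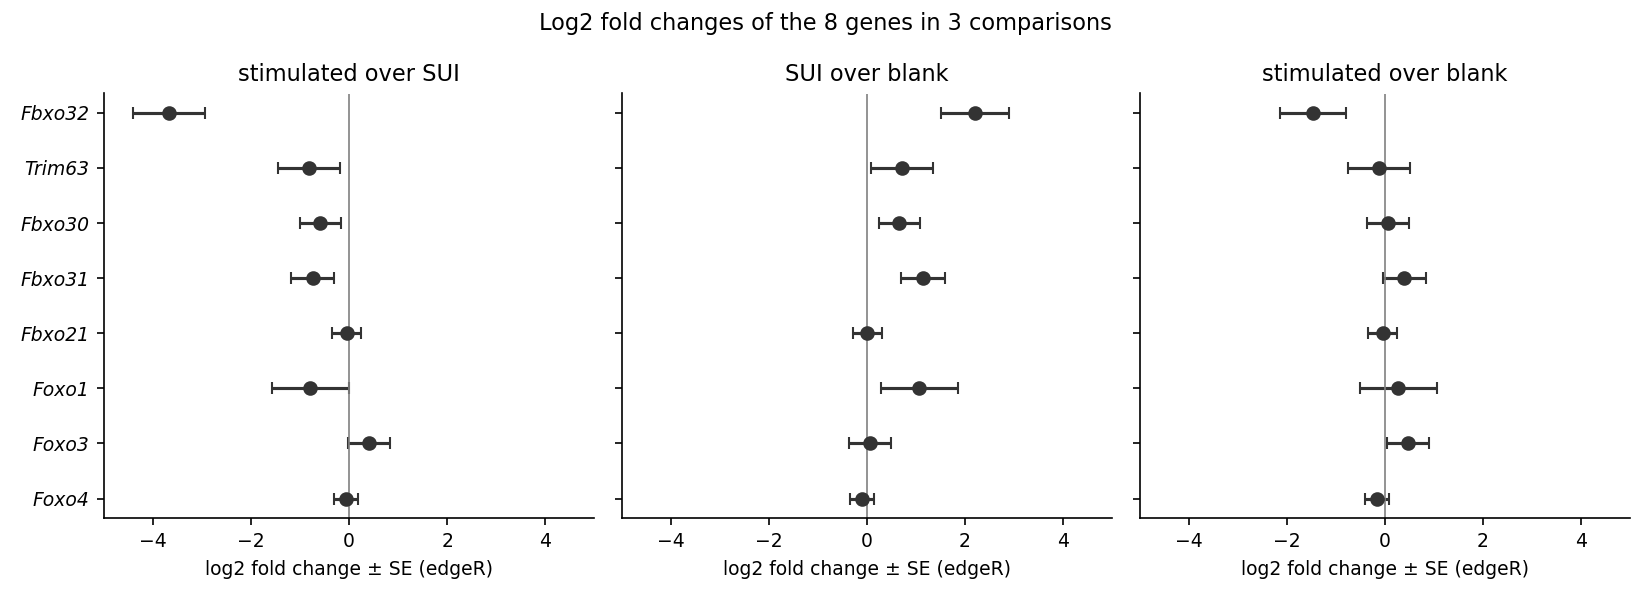
Log2 fold change with its SE for the 8 genes in each of the 3 comparisons (edgeR, all 9 libraries). Fbxo32 lies farthest from 0, at -3.67 for stimulated over SUI, and Foxo4 and Fbxo21 lie within 1 SE of 0 in every comparison.

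The third comparison, stimulated over blank muscle, asks how far stimulated muscle differed from untouched muscle, and each of its groups also stands in one of the other comparisons. None of the 8 genes passed the threshold with edgeR, against 0.00615% of all genes (1 of 16256). At an unadjusted p under 0.05 there were 0 of the 8 and 3.77% of all genes, and DESeq2 called 0.13% of genes and none of the 8. Signs were even, 4 positive and 4 negative, with a median of 0.02 against 0.04 over all genes. Fbxo32 had 25.0, 14.9 and 22.6 CPM in stimulated muscle, against 87.5, 51.4 and 33.7 CPM in blank muscle. Each stimulated library lay below each blank library, as in 4.72% of all genes, and the log2 fold change was -1.46 ± 0.67 (SE; edgeR unadjusted p = 0.0553, adjusted p = 0.898).

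The remaining ligases had fold changes within 1 SE of 0 between stimulated and blank muscle. Trim63 differed by -0.11 ± 0.63, Fbxo30 by 0.07 ± 0.42, Fbxo31 by 0.40 ± 0.44 and Fbxo21 by -0.04 ± 0.29 (log2, SE; edgeR adjusted p from 0.903 to 0.987). Of the factors, Foxo1 differed by 0.28 ± 0.78 (1.45 without blank replicate 3, -0.34 without stimulated replicate 1), Foxo3 by 0.48 ± 0.43 and Foxo4 by -0.16 ± 0.24 (log2, SE). A test for any difference among the 3 groups gave its smallest edgeR p among the 8 for Fbxo32 (unadjusted 0.0011, adjusted 0.405). With edgeR 0 of the 8 and 0.00615% of all genes passed the adjusted threshold, and 1 of the 8 and 7.16% of all genes an unadjusted p under 0.05. DESeq2 gave Fbxo32 an adjusted p of 0.000105, in a fit that called 1.35% of genes.

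Several of these genes varied widely between libraries of 1 group. Fbxo32 spanned 7.79-fold within the SUI group, a range reached there by 1.49% of 12088 genes with a mean of at least 1 CPM, for which the median gene spanned 1.44-fold. Foxo1 was wide in every group, spanning 6.34-fold in stimulated muscle, 3.57-fold in SUI muscle and 4.93-fold in blank muscle, ranges reached by 1.67%, 5.99% and 2.95% of genes. Trim63 spanned 3.95-fold, 3.94-fold and 2.79-fold in the stimulated, SUI and blank groups. Foxo4 and Fbxo21 were steadier, at 1.38-fold to 1.54-fold and 1.11-fold to 2.39-fold.

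Levels of the 8 genes were set against each other in all 28 pairs, of which 1 passed the adjusted threshold by Pearson's r and none by Spearman's rho. Over the 9 libraries Trim63 and Fbxo30 had Pearson's r = 0.89 (exact permutation p = 0.000466, adjusted over 28 pairs 0.013) and Spearman's rho = 0.83 (exact permutation p = 0.00827, adjusted 0.231), and r was 0.86 without the 2 libraries farthest from the median of Trim63. Trim63 and Fbxo31 had r = 0.80 (exact permutation p = 0.00952, adjusted 0.133) and rho = 0.78 (exact permutation p = 0.0172, adjusted 0.241), and 0.74 without those libraries. Foxo1 and Foxo3 had r = 0.81 (exact permutation p = 0.0145, adjusted 0.135) and rho = 0.65 (exact permutation p = 0.0666, adjusted 0.304). Without the 2 libraries farthest from the median of Foxo1, r was 0.72. Measured as deviations from the group means, r was 0.99 for Foxo1 and Foxo3 and 0.89 for Foxo3 and Foxo4.

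For Fbxo32 and Foxo1, r was 0.09 and rho 0.28 (exact permutation p = 0.834 and 0.463, adjusted 0.898 and 0.682; r = -0.01 without 2 libraries). With Trim63 it had r = 0.58 and rho = 0.35 (exact permutation p = 0.103 and 0.359, adjusted 0.305 and 0.628), which rested on stimulated replicate 2 and SUI replicate 1, since r was -0.37 without them. All these libraries share 1 batch label, and depth and mitochondrial share also vary among them. Their part in these relations was not tested.

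**Figure D3:**
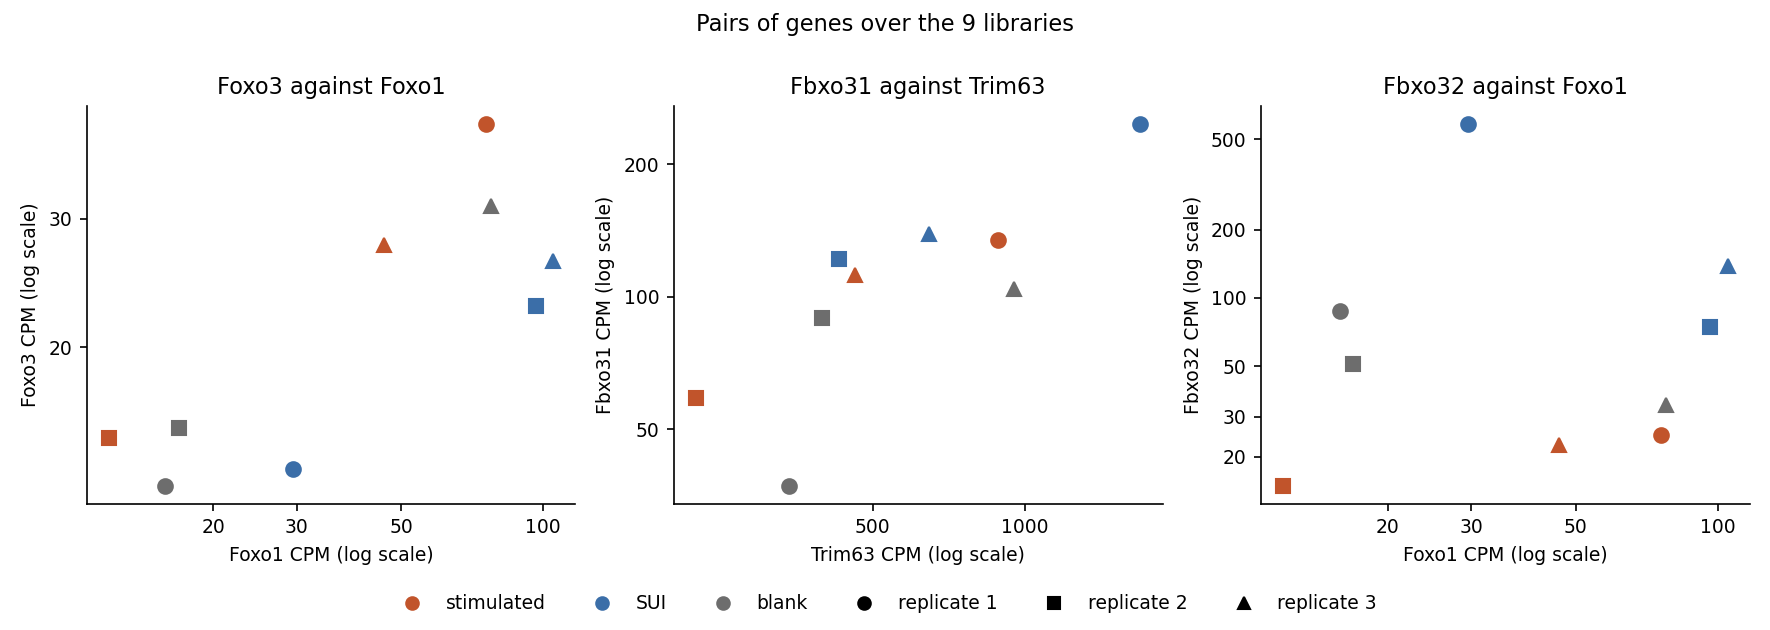
CPM (both axes logarithmic) of Foxo3 against Foxo1, Fbxo31 against Trim63, and Fbxo32 against Foxo1, 1 point per library, marked by group. The first and second pairs spread along a diagonal (r = 0.81 and 0.80) and the third does not (r = 0.09).

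The genes around this axis were followed in 7 lists, which hold 95 genes, with 92 of them tested. None passed the adjusted threshold with edgeR in any comparison, so values are given for the genes with the smallest p of each list. Upstream of the FoxO factors, 13 genes of insulin and IGF signalling had a median log2 fold change of -0.23 for stimulated over SUI and 0.07 for SUI over blank, against 0.02 and 0.01 over all genes. Irs2, an insulin receptor substrate, had 89.3, 30.1 and 113 CPM in stimulated muscle, 12.9, 44.5 and 16.7 CPM in SUI muscle and 49.9, 46.9 and 80.0 CPM in blank muscle. It was lower in every SUI library than in every blank library, as were 7.77% of all genes, with log2 fold changes of 1.65 ± 0.56 for stimulated over SUI and -1.25 ± 0.55 for SUI over blank (SE).

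Among 12 genes that modify or accompany FoxO factors, 11 had negative values for SUI over blank, against 49.2% of all genes. Their median was -0.18, against 0.01 over all genes. At an unadjusted edgeR p under 0.05 there was 1 of the 12, Foxo6, and 8.18% of all genes. For stimulated over blank 8 of the 12 were negative, against 45.7% of all genes, at a median of -0.12. Prkaa1 had 51.9, 17.2 and 19.3 CPM in blank muscle and Prkaa2 69.4, 21.0 and 39.0 CPM. Both were highest in blank replicate 1, unlike Foxo6 and Ywhaz, and the part of that library in the count was not tested. Foxo6, the remaining member of the FoxO family, had 7.60, 12.7 and 12.5 CPM in stimulated muscle, 2.92, 4.64 and 2.91 CPM in SUI muscle and 6.94, 10.2 and 5.66 CPM in blank muscle. All 3 SUI libraries lay below all 6 others. Of all genes, 9.52% were higher without overlap in stimulated than in SUI muscle, and 7.77% were lower without overlap in SUI than in blank muscle. The log2 fold change was 1.65 ± 0.32 for stimulated over SUI (SE; edgeR unadjusted p = 0.000506, adjusted p = 0.266) and -1.12 ± 0.32 for SUI over blank (SE; edgeR unadjusted p = 0.00578, adjusted p = 0.504).

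Of 15 other inputs to the ligases, 14 were tested. Hdac4, a deacetylase that acts in denervated muscle, had 16.1, 9.55 and 11.3 CPM in stimulated muscle, 23.0, 34.1 and 21.6 CPM in SUI muscle and 6.96, 6.50 and 10.8 CPM in blank muscle. All SUI libraries were above all others. Of all genes, 9.28% were lower without overlap in stimulated than in SUI muscle and 7.34% higher without overlap in SUI than in blank muscle, the shares against which Stat3 and Gadd45a are read too. Hdac4 had log2 fold changes of -1.09 ± 0.29 for stimulated over SUI and 1.70 ± 0.30 for SUI over blank (SE; edgeR adjusted p = 0.425 and 0.200). Stat3, a transcription factor of cytokine signalling, had 55.0 to 90.3 CPM in stimulated muscle, 120 to 156 CPM in SUI muscle and 43.0 to 84.8 CPM in blank muscle, so that its 3 highest values were those of the SUI libraries. Nr3c1, the glucocorticoid receptor whose palindrome stands in the Trim63 window, had its 3 lowest values in SUI muscle, with 83.7, 65.5 and 68.8 CPM in stimulated muscle, 36.5, 52.0 and 43.2 CPM in SUI muscle and 114, 70.0 and 74.4 CPM in blank muscle (log2 fold changes 0.73 ± 0.24 and -0.97 ± 0.24, SE), a separation to be read against the shares given for Foxo6.

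Downstream, 17 FoxO target genes had a median log2 fold change of -0.42 for stimulated over SUI, against 0.02 over all genes. Of the 17, 12 were negative, against 47.4% of all genes. For SUI over blank the median of the 17 was 0.25, against 0.01 over all genes. SUI replicate 1 lay above the other SUI libraries by a median of 0.63 log2 units over these genes, against 0.0 over all genes. Gadd45a, a stress gene that promotes atrophy, did not share that pattern, with 53.9, 60.0 and 51.9 CPM in SUI muscle. It had 32.2, 21.5 and 28.8 CPM in stimulated muscle and 24.6, 19.2 and 27.4 CPM in blank muscle, so all 3 SUI libraries exceeded all others. Its log2 fold changes were -1.01 ± 0.21 for stimulated over SUI and 1.22 ± 0.21 for SUI over blank (SE; edgeR adjusted p = 0.274 and 0.200). The lysosomal protease Ctsl, by contrast, reached 265 CPM in SUI replicate 1 alone, with 68.2 to 87.2 CPM in stimulated muscle, 70.2 and 88.3 CPM in the other SUI libraries and 42.8 to 78.5 CPM in blank muscle.

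In the shared machinery, 13 of 14 genes for ubiquitin, its conjugating enzymes and the SCF core were tested, with medians of -0.05 and 0.06 for the same comparisons. Ube2d1, a conjugating enzyme, stood at 821 CPM in blank replicate 1 and at 159 and 118 CPM in the other blank libraries.

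The 15 other muscle ubiquitin ligases had medians of 0.0 for stimulated over SUI and for SUI over blank. The close relatives of Trim63 had values of opposite sign for stimulated over SUI. Trim55 (MuRF2) had 63.3, 59.3 and 53.4 CPM in stimulated muscle, 24.7, 37.7 and 41.8 CPM in SUI muscle and 47.3, 43.3 and 51.0 CPM in blank muscle, a log2 fold change of 0.76 ± 0.22 for stimulated over SUI (SE). Trim54 (MuRF3) had 502, 257 and 374 CPM in stimulated muscle, 484, 639 and 751 CPM in SUI muscle and 305, 343 and 486 CPM in blank muscle, a log2 fold change of -0.72 ± 0.30 (SE). Transcripts of 8 tested ligase substrates were all on the positive side for stimulated over SUI, as were 52.6% of all genes. Their median was 0.17, against 0.02 over all genes, and none had an unadjusted edgeR p under 0.05. In SUI replicate 1 these transcripts differed from the other SUI libraries by a median of -0.75 log2 units.

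**Figure D4:**
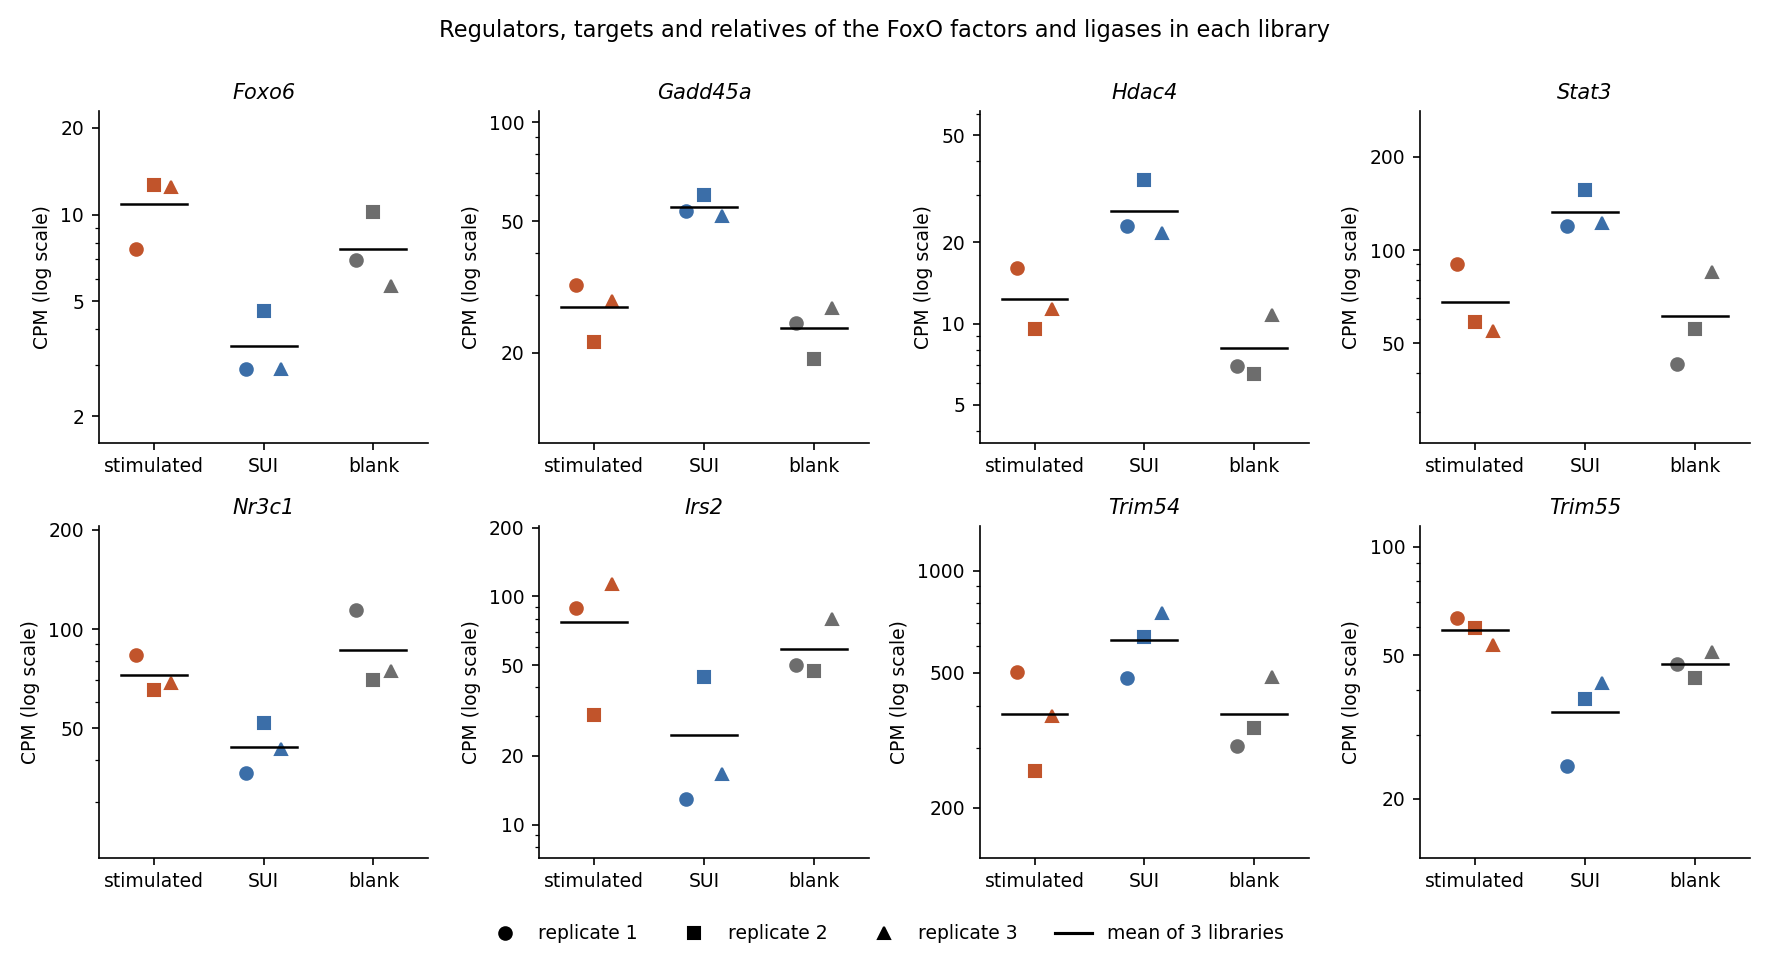
CPM (log axis) in each library, by group, of 8 genes around the FoxO axis, chosen for display after their values were seen. SUI libraries are set apart on the high side for Gadd45a (51.9 to 60.0 CPM) and Hdac4 and on the low side for Foxo6 (2.91 to 4.64 CPM).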

How the data were processed

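RNA of whole pubococcygeus muscle from 9 libraries in 3 groups was measured. The authors deposited gene counts and FPKM values for 30518 rows in tables of all 9 libraries. Bowtie2, RSEM 1.3.1, DESeq2 1.4.5 and the build mRatBN7.2 are named in the submitters' processing notes, and the deposited expected counts are whole numbers. Neither labels nor headers say whether counting used strand. The authors' FPKM values served for levels between genes and as an alternative scale.

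Counts were filtered with filterByExpr, scaled by TMM and tested in 1 quasi-likelihood fit of all 9 libraries (edgeR 4.0.16, limma 3.58.1, R 4.3.3), with Benjamini-Hochberg adjustment over 16256 genes and a threshold of 0.05. SEs are the log2 fold change divided by the root of its F value. CPM are TMM-scaled unless said otherwise, and correlations use log2(CPM + 0.5). Alternatives were DESeq2 1.42.0 and its size factors, library totals, mitochondrial transcripts left out, other filters, voom with sample weights, 6 libraries only, a replicate block, log2(FPKM + 1) and log2(FPKM + 0.1), a length trend removed, and each library left out. The code was tested on simulated data. Named genes are the 8 members, up to 4 genes per list and comparison with the smallest edgeR p, and the 5 genes most correlated with Fbxo32, Trim63, Foxo1 and Foxo3. The members and lists were chosen with earlier results of these data known. Of the list genes, Ube2d3 and Myl1 matched no row, nor did the markers Krt14 and Hbb, and Mylpf was read as Myl11. 1 gene that this rule names is not reported here.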

Additional observations from a re-analysis of the deposited data

How the results depend on the processing

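Of 528 fold changes of the 8 genes under alternatives, 488 kept their sign, 40 turned it and 2 passed the threshold. Fbxo32 and Fbxo31 kept their sign in 66 of 66 each. The cause was not tested where a value turned. The 2 were Fbxo32 for stimulated over SUI, with DESeq2 and with voom, which each called 1 of the 8, as did DESeq2 for any difference among the groups. All genes called for stimulated over SUI numbered 208 with DESeq2, 48 with voom and 1 with library totals. They numbered 0 with the 6 libraries compared, on both FPKM scales and without both first replicates of blank and SUI, and 0 to 3 with each library left out. For SUI over blank DESeq2 called 176, and leaving out each library gave 0 to 1. For stimulated over blank DESeq2 called 21, the 6 libraries, log2(FPKM + 1) and the loss of both first replicates gave 0, and leaving out each library gave 0 to 1. No pairing by replicate number was visible (correlations of same-numbered deviations -0.218 to 0.113), though 3 libraries per group are too few to settle it. The replicate block called 1 gene for stimulated over SUI and 0 for stimulated over blank, where it turned Fbxo30 to -0.06 and Fbxo21 to 0.02.

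Other turned values for stimulated over SUI were Fbxo21 0.03 (voom) and Fbxo30 0.06 (both first replicates out). For SUI over blank they were Foxo4 0.04 (library totals), 0.16 and 0.17 (FPKM plus 1 and plus 0.1), Fbxo21 -0.01 (mean CPM of at least 1), -0.29 (voom) and -0.32 (both out), and Trim63 -0.33 (both out). For stimulated over blank they were Fbxo30 -0.11 (voom), Fbxo21 0.04 and 0.12 (FPKM plus 1 and plus 0.1) and Foxo1 -0.08 (both out). Library totals moved the median of all genes to -0.11, 0.19 and 0.09 in the 3 comparisons.

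With each library left out, values for stimulated over SUI ran from -4.13 to -2.35 for Fbxo32, -1.0 to 0.07 for Fbxo30, -0.16 to 0.02 for Fbxo21, -1.41 to -0.34 for Foxo1 and -0.18 to 0.11 for Foxo4. For SUI over blank they ran from -0.08 to 1.32 for Trim63, -0.01 to 0.91 for Fbxo30, -0.26 to 0.27 for Fbxo21, 0.70 to 2.24 for Foxo1 and -0.16 to 0.56 for Foxo3. For stimulated over blank they ran from -0.72 to 0.51 for Trim63, -0.34 to 0.27 for Fbxo30, -0.34 to 0.22 for Fbxo21, -0.34 to 1.45 for Foxo1 and -0.31 to 0.01 for Foxo4.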

Other observations

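Genes whose levels followed those of 4 of the 8 genes most closely were ranked by Pearson's r of log2 CPM over the 9 libraries, among 11267 genes. The r values are descriptions, since the libraries differ in depth and group, and the part of these in r was not tested. For Fbxo32 they were Lrrc30 (r = 0.969), Kcnj2 (0.957), Zfp142 (0.954), C1h10orf88 (0.952) and Mdc1 (0.938). Lrrc30 had 4.09, 1.50 and 2.08 CPM in stimulated muscle, 40.3, 6.53 and 20.4 CPM in SUI muscle and 7.31, 5.79 and 4.89 CPM in blank muscle, with the same highest library as Fbxo32. Kcnj2, an inward rectifier potassium channel gene, had 10.5, 9.79 and 13.4 CPM in stimulated muscle, 37.8, 20.7 and 23.0 CPM in SUI muscle and 24.5, 14.3 and 15.5 CPM in blank muscle.

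For Trim63 the closest were Csnk2a2 (r = 0.978), Slc7a8 (0.957), Brme1 (0.941), Wdr3 (0.930) and Gpat4 (0.928). Slc7a8, an amino acid transporter gene, had 66.5, 17.3 and 44.6 CPM in stimulated muscle, 107, 34.3 and 35.0 CPM in SUI muscle and 21.8, 33.9 and 60.3 CPM in blank muscle. For Foxo1 they were Bach1 (r = 0.974), Preb (0.963), Mrto4 (0.963), Fkbp5 (0.960) and Zbed4 (0.957). Fkbp5, a glucocorticoid-induced chaperone gene, had 146, 29.0 and 93.0 CPM in stimulated muscle, 115, 221 and 294 CPM in SUI muscle and 24.3, 37.4 and 170 CPM in blank muscle. For Foxo3 they were Ppard (r = 0.978), Kiaa1671 (0.937), Tex2 (0.935), Sec24a (0.935) and Polh (0.929). Ppard, a nuclear receptor gene of fat oxidation, had 107, 26.6 and 60.5 CPM in stimulated muscle, 18.5, 48.3 and 63.4 CPM in SUI muscle and 26.3, 32.1 and 71.5 CPM in blank muscle.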
